A study of Caenorhabditis elegans with 2 samples.

Results

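The endoplasmic reticulum (ER) unfolded protein response genes examined here are 10 Caenorhabditis elegans genes listed by name, namely xbp-1, atf-6, ire-1, pek-1, hsp-3, hsp-4, enpl-1, cnx-1, crt-1 and pdi-6, out of 19973 nuclear protein-coding genes. All 10 were found in the annotation. They are listed by name and not by a threshold on a measured value, but with earlier results of these data known. The data are chromatin immunoprecipitation and sequencing (ChIP-seq) peak lists for C08G9.2, an uncharacterized worm protein, tagged at its C-terminus with GFP and FLAG and recovered with an anti-GFP antibody. There was 1 group with 2 biological replicates: whole hermaphrodite late embryos of strain OP513, genotype unc-119(tm4063) III; wgIs513, taken 5 hours after synchronization by egg bleaching. Both replicates carry the same transgene in the same line, so no untagged or unstressed-against-stressed comparison exists. Whole embryos mix all cell types, and a region in a list says nothing of which cells it came from. A region says where the tagged protein was recovered, not how much the gene was expressed.

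The ER folds secreted and membrane proteins, and the unfolded protein response raises its folding capacity when misfolded proteins build up. The membrane sensors are IRE-1, a kinase and endoribonuclease that cuts the xbp-1 messenger RNA, PEK-1, the worm PERK kinase that slows translation, and ATF-6, a membrane-bound transcription factor. The spliced xbp-1 message encodes XBP-1, a bZIP transcription factor, and the response raises chaperones such as HSP-4, a worm BiP.

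Each member was described by the regions whose summit lay within 1000 bp of the gene start, in the lists of replicate 1 (27783 regions), replicate 2 (29382), both replicates pooled (30000) and the thresholded list (1416 peaks). The thresholded list was made by irreproducible discovery rate (IDR), a measure of how alike the replicates rank regions. Its 1416 peaks are the top of the pooled list by signal, so a pooled rank of 1416 or better is the same as having a thresholded peak. A single thresholded peak is therefore not always one that the replicates ranked alike. Of the 1415 found in both replicate lists, 976 (69%) stood among the 1416 highest-signal regions of both. A rank of 1 is the highest signal in a list. The replicate and pooled lists hold weak regions by design, down to what their records call background. The scale of the signal is not stated, so signal is compared within a list only. With no counts of reads in the lists the depth is unknown, and with 1 group no test was made.

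The promoter sequences of hsp-4 and xbp-1 are shown because they hold the letters of bZIP sites known from this response. Each runs 5′ to 3′ on the strand of the gene, from 250 bases before the annotated start to 50 bases from it onwards (WBcel235, the same assembly as ce11). They span chrII:7352596-7352895 (minus strand) and chrIII:4193559-4193858 (plus). Capitals mark exact matches, on either strand, to TGACGTG, TGACGTCA or CCACG.
hsp-4: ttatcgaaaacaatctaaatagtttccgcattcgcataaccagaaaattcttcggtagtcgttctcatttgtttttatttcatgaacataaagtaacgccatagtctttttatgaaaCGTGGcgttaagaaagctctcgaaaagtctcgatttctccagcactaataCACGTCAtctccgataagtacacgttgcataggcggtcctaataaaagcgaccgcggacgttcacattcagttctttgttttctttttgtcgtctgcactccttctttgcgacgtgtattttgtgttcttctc
xbp-1: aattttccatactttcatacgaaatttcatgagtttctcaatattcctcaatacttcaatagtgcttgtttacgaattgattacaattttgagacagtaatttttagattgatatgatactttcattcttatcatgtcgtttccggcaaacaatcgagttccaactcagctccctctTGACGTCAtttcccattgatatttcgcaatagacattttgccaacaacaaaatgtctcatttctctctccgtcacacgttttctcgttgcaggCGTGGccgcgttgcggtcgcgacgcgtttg

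Windows reaching 50 bases to each side of the summit of the best pooled region are shown for 4 members with a frequent 7-mer and for atf-6, which has none. Capitals mark any of the 10 7-mers whose share in summit windows most exceeded that in windows 500 bp away, over all thresholded peaks. They lie at chrIV:11119261-11119361 (plus), chrX:7068528-7068628 (minus), chrIII:9817392-9817492 (minus), chrV:6100832-6100932 (minus) and chrX:12480590-12480690 (plus).
enpl-1: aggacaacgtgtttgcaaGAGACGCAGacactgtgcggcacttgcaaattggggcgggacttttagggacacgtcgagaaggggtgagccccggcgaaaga
pdi-6: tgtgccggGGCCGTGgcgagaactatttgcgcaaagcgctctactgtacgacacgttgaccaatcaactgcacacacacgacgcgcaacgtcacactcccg
cnx-1: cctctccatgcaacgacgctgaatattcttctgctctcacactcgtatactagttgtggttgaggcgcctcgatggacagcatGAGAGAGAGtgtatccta
crt-1: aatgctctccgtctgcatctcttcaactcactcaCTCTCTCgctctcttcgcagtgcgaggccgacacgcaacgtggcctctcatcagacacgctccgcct
atf-6: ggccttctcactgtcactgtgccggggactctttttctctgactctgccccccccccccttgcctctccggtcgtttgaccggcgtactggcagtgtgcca

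Of the 10 members, 6 had a thresholded peak within 1000 bp of the start: the factors atf-6 and xbp-1, and the folding genes cnx-1, enpl-1, hsp-3 and pdi-6. Among all protein-coding genes the same rule called 5.60%. The members without one were crt-1, hsp-4, pek-1 and ire-1. All 10 had some pooled region, against 46.7% of protein-coding genes. The median rank of the best pooled region was 1244 over the members and 11006 over the 9337 genes that had one. Given how the members were listed, these counts describe the list and are no independent evidence about it.

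The members' ranks ran from 290 to 16746 in the pooled list. From the strongest down, pdi-6 came before enpl-1, then atf-6 before hsp-3, then cnx-1 before xbp-1, followed by crt-1, hsp-4, pek-1 and ire-1. The neighbours atf-6 and hsp-3 (ranks 986 and 1000), and cnx-1 and xbp-1 (1234 and 1254), lay closer to each other than either lay to its own replicate ranks. Both membrane kinases stood last, and the membrane-bound factor atf-6 came behind pdi-6 and enpl-1 alone.

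**Figure D1:**
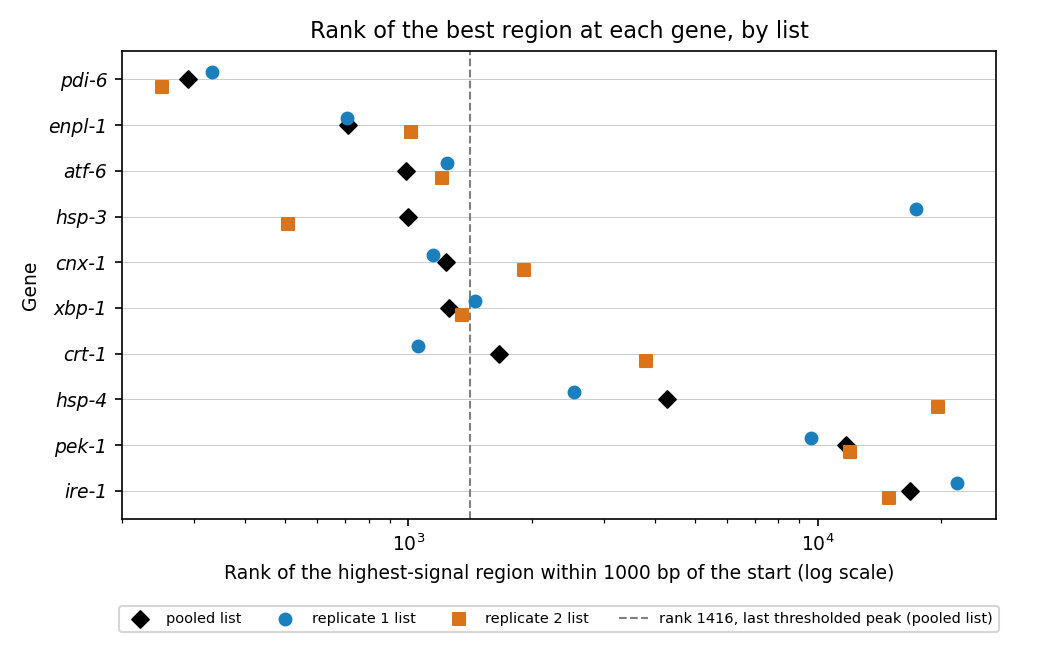
Rank of the highest-signal region within 1000 bp of each gene start (x axis, log scale, 1 is the strongest) for the 10 genes (y axis), with diamonds for the pooled list, circles for replicate 1 and squares for replicate 2. The dashed line is rank 1416: pdi-6, enpl-1 and atf-6 lie left of it in all 3 lists, and hsp-3 lies at 509 in replicate 2 and 17360 in replicate 1.

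Among the sensors, only atf-6 had a thresholded peak. The atf-6 gene (WBGene00000222, chromosome X, 12480948 to 12484904, plus strand) had 1 region in each list, at nearly the same place: the summit lay 308 bp upstream of the start in the pooled list, 311 bp in replicate 1 and 307 bp in replicate 2. Its signal was 50.3 in replicate 1 (rank 1246), 59.3 in replicate 2 (rank 1209) and 114 in the pooled list (rank 986). Both replicates placed it among their own 1416 highest-signal regions. No other annotated start of any kind lay within 1000 bp of the summit. Inside the gene body the best pooled summit ranked 11621.

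The ire-1 gene (WBGene00002147, chromosome II, 8112243 to 8124910, minus strand) had a weak region at its start in the pooled list and in both replicates. Its signal was 16.9 in replicate 1 (rank 21803), 22.8 in replicate 2 (rank 14888) and 36.0 in the pooled list (rank 16746). The pooled summit lay 65 bp upstream of the start and the replicate 1 summit 2 bp inside the 5′ UTR. A stronger pooled region (signal 73.8, rank 2880) lay outside the distance used, 1468 bp upstream. The start of C41C4.14, a gene annotated as ncRNA, lay 811 bp from the pooled summit, farther than that of ire-1. The nearest thresholded peak was 4009 bp upstream and lay closer to ulp-4.

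The pek-1 gene (WBGene00003970, chromosome X, 11410176 to 11414887, minus strand) had 3 pooled regions around its start, none of them thresholded. Their summits lay 440 bp upstream (signal 42.5, rank 11715), 208 bp upstream (39.4, rank 13887) and 79 bp downstream in a coding exon (33.3, rank 19564). The replicates did not favour the same one. The best region of replicate 1 (signal 24.3, rank 9637) was 193 bp upstream and that of replicate 2 (25.1, rank 11987) was 69 bp downstream. The nearest thresholded peak was 29996 bp away.

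The xbp-1 gene (WBGene00006959, chromosome III, 4193809 to 4195358, plus strand) had a thresholded peak inside the gene. Its pooled summit lay 180 bp after the start, in a coding exon, with a signal of 102 and rank 1254, which is 162 places inside the list. Replicate 1 gave a single region at 181 bp (signal 47.2, rank 1458). Replicate 2 gave 2 overlapping regions, the stronger at 21 bp in the 5′ UTR (signal 56.5, rank 1350) and the weaker at 227 bp (34.9, rank 5004). The best ranks of the replicates lay close together, but the summits of the strongest regions did not coincide. The letters TGACGTCA, the cAMP response element that bZIP proteins bind, began 73 bp before the start, 253 bp from the pooled summit.

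The hsp-3 and hsp-4 genes encode the 2 worm BiP proteins, the Hsp70 chaperones of the ER lumen. The hsp-3 gene had a thresholded peak and hsp-4 did not, and each ranked better in a different replicate. Only hsp-3 stood among the 1416 highest-signal regions of a replicate. The hsp-3 gene (WBGene00002007, chromosome X, 6089028 to 6092124, minus strand) had 1 region at its start in each list. Its signal was 19.0 in replicate 1 (rank 17360), 93.0 in replicate 2 (rank 509) and 113 in the pooled list (rank 1000). The summit lay 29 bp upstream of the start in replicate 2 and in the pooled list, and 50 bp upstream in replicate 1. Replicate 1 therefore had a region at the same place, but among its weak ones.

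A rank gap, the worse replicate rank divided by the better, was taken for each thresholded peak from the overlapping replicate region of highest signal. The rank gap of the hsp-3 peak was 34.1-fold, the largest of the 1415 thresholded peaks found in both replicate lists. The median over those peaks was 1.43-fold and the 95th percentile 4.02-fold. Only 8 of them (0.565%) had a replicate rank past 10000. The hsp-3 peak was thus in the thresholded list through replicate 2, and it did not stand among the 1416 highest-signal regions of replicate 1.

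The hsp-4 gene (WBGene00002008, chromosome II, 7350112 to 7352645, minus strand) had no thresholded peak, and its replicates leaned the other way. Its signal was 38.8 in replicate 1 (rank 2541), 19.9 in replicate 2 (rank 19592) and 63.5 in the pooled list (rank 4274). All 3 summits lay 674 or 675 bp upstream. The rank gap of 7.71-fold was matched or passed by 225 of 3505 pooled regions ranked 1417 to 5000 and found in both replicates (6.42%), among which the median was 2.14-fold. The nearest thresholded peak lay 126264 bp upstream, at ubc-6, the farthest of any member.

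The promoter of hsp-4 held TGACGTG, the core of the element bound by XBP-1 and ATF6-type factors. It began 83 bp before the start, on the opposite strand, and 591 bp from the summit. The region recovered at hsp-4 therefore did not span these letters, since its summit lay 674 bp upstream and its length was 430 bp. The letters CCACG, the part of the ER stress element that mammalian ATF6 contacts, began 133 bp before the start of hsp-4 on the opposite strand, as the capitals above show.

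**Figure D2:**
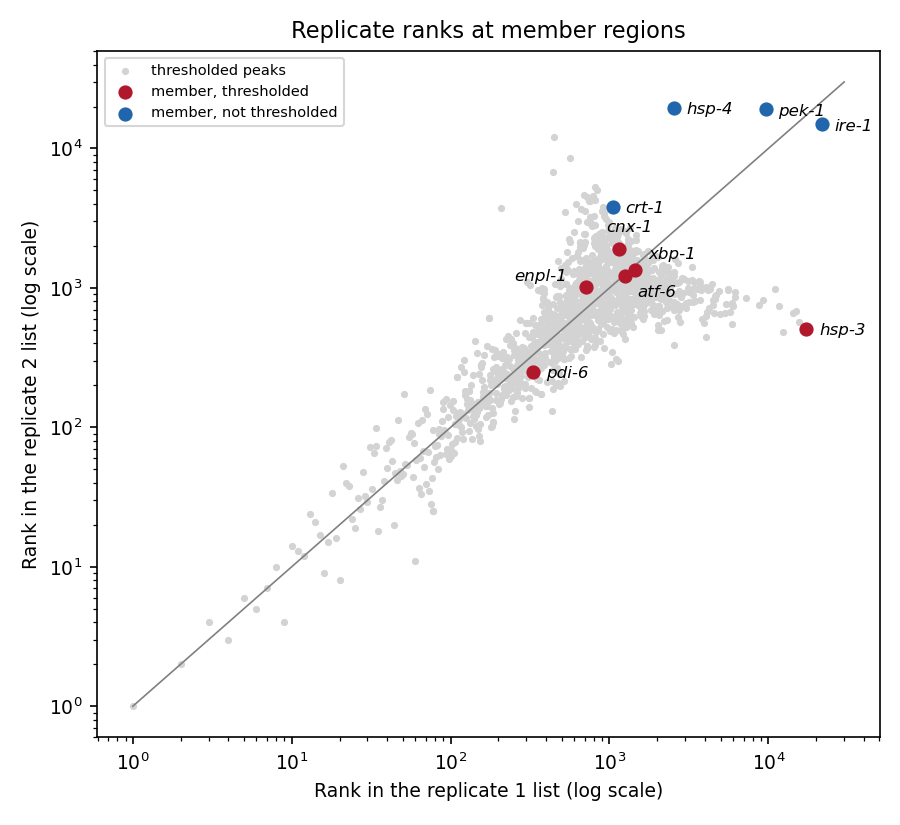
Rank of the overlapping region in replicate 1 (x axis) against replicate 2 (y axis), both on log scales, for the thresholded peaks (grey) and for the best pooled region of the 10 genes (red with a thresholded peak, blue without). The hsp-3 point at 17360 and 509 lies farthest to the right of the diagonal among thresholded peaks, and hsp-4 lies above the diagonal at 2541 and 19592.

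The enpl-1 gene (WBGene00011480, chromosome IV, 11119298 to 11123155, plus strand) encodes the worm GRP94, an Hsp90 chaperone of the ER. Its peak lay on the gene start, with summits 13 bp after it in the pooled list, 5 bp in replicate 1 and 26 bp in replicate 2, all in the 5′ UTR. The signal was 64.4 in replicate 1 (rank 707), 64.3 in replicate 2 (rank 1014) and 135 in the pooled list (rank 714). Both replicates had it among their 1416 strongest regions. Weaker pooled regions lay 992 bp upstream (signal 57.9, rank 5490), 213 bp downstream (53.8, rank 6621) and 863 bp downstream (33.8, rank 18994), the latter pair in introns.

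The enpl-1 peak was the only one of the 6 with another protein-coding start in reach. The start of imp-2, an intramembrane protease gene on the opposite strand, lay 411 bp from that of enpl-1 and 424 bp from the summit. The enpl-1 start was the nearer, and enpl-1 was still called when a peak was given to its closest start only.

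The cnx-1 and crt-1 genes encode calnexin and calreticulin, lectin chaperones that bind calcium and glycoproteins in the ER. They stood on either side of the threshold. The cnx-1 gene (WBGene00000567, chromosome III, 9814364 to 9817137, minus strand) had a signal of 52.0 in replicate 1 (rank 1150), 49.2 in replicate 2 (rank 1917) and 103 in the pooled list (rank 1234). Its summit lay 305 bp upstream in the pooled list and in replicate 2, and 236 bp upstream in replicate 1. The start of ZK632.16, a gene annotated as ncRNA, lay 37 bp from the pooled summit, nearer than cnx-1 itself.

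The crt-1 gene (WBGene00000802, chromosome V, 6098992 to 6100542, minus strand) had a signal of 53.6 in replicate 1 (rank 1053), 38.3 in replicate 2 (rank 3805) and 91.0 in the pooled list (rank 1660). That is 244 places past the last thresholded peak, whose signal was 97.0. By replicate 1 alone crt-1 would rank above cnx-1, and by replicate 2 alone below it. The pooled summit lay 340 bp upstream. It was 2 bp from the start of one ncRNA annotated as Y38A10A.8 (WBGene00202143) and 147 bp from that of another of the same name on the other strand (WBGene00195561). The rank gap of 3.61-fold was matched or passed by 26.0% of the pooled regions ranked 1417 to 5000.

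The pdi-6 gene (WBGene00015168, chromosome X, 7066342 to 7068563, minus strand), for a protein disulfide isomerase that forms and rearranges disulfide bonds, had the strongest peak. Its signal was 104 in replicate 1 (rank 331), 140 in replicate 2 (rank 250) and 246 in the pooled list (rank 290). The summit lay 15 bp upstream of the start in all 3 lists. The region was 218 bp long in the pooled list, 172 bp in replicate 1 and 190 bp in replicate 2. All other regions within 1000 bp of a member were 430 bp long. That length is shared by 98.8% of pooled regions but by 74.8% of thresholded peaks.

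A second region lay in an intron of pdi-6, 829 bp after the start in the pooled list (signal 91.6, rank 1630). It ranked 1483 in replicate 1 (signal 46.9) and 6768 in replicate 2 (31.3), so it was stronger by rank in replicate 1. The start of the ncRNA gene B0403.9 lay 794 bp from the start of pdi-6, near that intronic summit. In the pooled list this region had a rank close to that of crt-1 and was not thresholded.

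**Figure D3:**
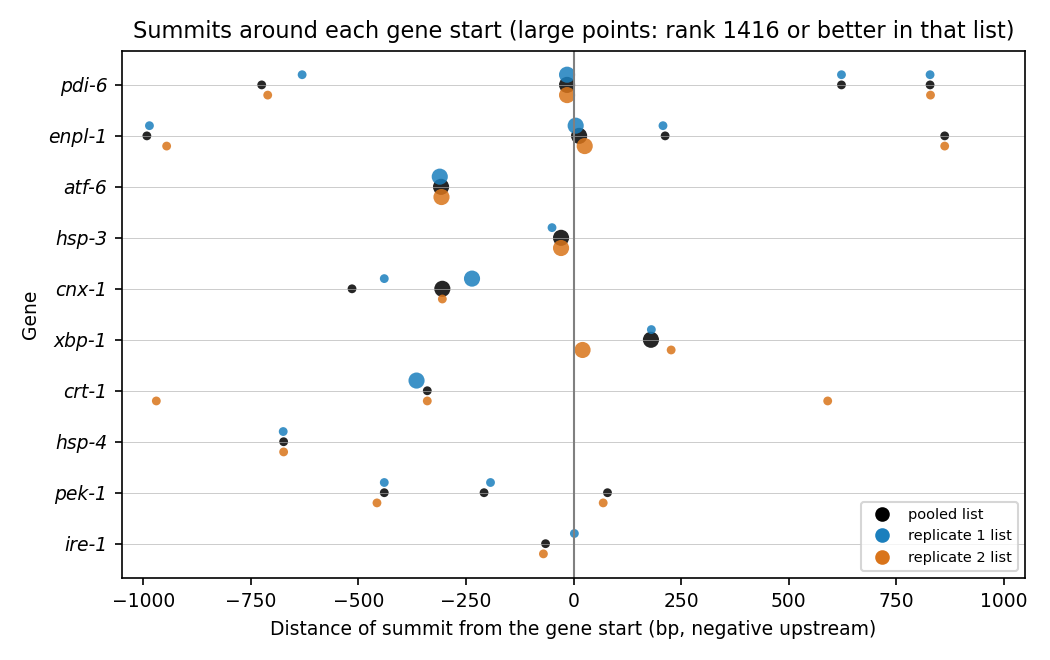
Distance of every region summit from the gene start (x axis, bp, negative upstream) for the 10 genes (y axis, ordered by pooled rank), with black, blue and orange points for the pooled, replicate 1 and replicate 2 lists. Large points rank 1416 or better in their own list: the large black points sit within 29 bp of the start at pdi-6, enpl-1 and hsp-3, 308 and 305 bp upstream at atf-6 and cnx-1, and 180 bp inside xbp-1, and crt-1 has a large point in replicate 1 alone.

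Positions fell into separate ranges among the 6 thresholded peaks. For pdi-6, hsp-3 and enpl-1 the pooled summit was within 29 bp of the start, for atf-6 and cnx-1 it was 308 and 305 bp upstream, and for xbp-1 it was 180 bp downstream. The median over the 6 was 22 bp upstream, and 4 of them (66.7%) lay upstream. Over all 1165 pairs of a thresholded peak and a protein-coding start within 1000 bp, the median was 232 bp upstream and 86.3% lay upstream. With 6 peaks these values describe the members only.

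Replicate agreement was uneven across the members. The rank gap was 1.03-fold at atf-6, 1.08 at xbp-1, 1.32 at pdi-6, 1.43 at enpl-1 and 1.67 at cnx-1, and 34.1 at hsp-3. Of all thresholded peaks found in both lists, 75.9% had a gap under 2-fold, a range that holds all of these but hsp-3. For the members without a thresholded peak the gap was 1.46-fold at ire-1, 1.98 at pek-1, 3.61 at crt-1 and 7.71 at hsp-4. Deep in a list a rank gap has little room to grow, so the small values at ire-1 and pek-1 do not show agreement. The ire-1 regions stood at 78.5% of the replicate 1 list and 50.7% of the replicate 2 list. Those of enpl-1, with a similar gap, stood at 2.54% and 3.45%. When the replicate region with the nearest summit was taken in place of the strongest one, the gap changed at xbp-1 and pek-1 only. The xbp-1 gap became 3.43-fold with replicate 1 now the better, since the weaker of its 2 replicate 2 regions has the nearer summit. The pek-1 gap became 1.42-fold, with a replicate 1 region of rank 13400 in place of the one at rank 9637.

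The count of members also depended on which replicate was read. By the 1416 highest-signal regions of replicate 1, 5 members were called (atf-6, enpl-1, cnx-1, crt-1 and pdi-6), against 5.45% of protein-coding genes. By those of replicate 2, 5 were called (xbp-1, atf-6, hsp-3, enpl-1 and pdi-6), against 5.55%. Both replicates called 3 members, atf-6, enpl-1 and pdi-6, against 4.2% of genes, and 7 were called by at least 1 replicate, against 6.80%. The xbp-1 peak missed this rank in replicate 1 (1458) and the cnx-1 peak in replicate 2 (1917).

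Other ways of joining peaks to genes gave these counts of the 10 members. Within 500 bp of the start there were 6, against 4.13% of all protein-coding genes, within 250 bp 4, against 2.53%, and within 2000 bp 6, against 7.87%. With the start of any transcript there were 6, against 6.11%, with overlap of the whole region 6, against 6.05%, and with the nearest start only 6, against 4.08%. Among the 708 peaks of highest signal only pdi-6 was called, against 3.38% of genes. The other 5 thresholded members lay below that, with enpl-1 closest to it at rank 714.

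In sequence, the windows reaching 50 bases to each side of the best pooled summit of each member held none of the full bZIP elements. TGACGTG was in 0 of 10 and in 0.918% of thresholded peaks, TGACGTCA in 0 of 10 and in 0.212%, and the ER stress element in 0 of 10 and in 0 of 1416 peaks. CCACG was in 4 of 10 (xbp-1, hsp-4, crt-1 and pdi-6) and in 24.4% of peaks. Of these members only xbp-1 and pdi-6 had a thresholded peak. The 10 windows include those of crt-1, hsp-4, pek-1 and ire-1, which were not thresholded, so the comparison with thresholded peaks is of unlike regions. TGACGTG, found in the hsp-4 promoter, was in 2.93% of all protein-coding promoters of 300 bp. In promoters of that length TGACGTCA was in 1 of 10, xbp-1, and in 1.51%, CCACG in 6 of 10 and in 21.7%, and the ER stress element in 0 of 10 and in 6 of 19973 promoters. The letters ACGT, which lie within the first 2 elements, were in 9 of 10 promoters and in 50.5% of all. In the summit windows ACGT was in 5 of 10 and in 18.9% of thresholded peaks. All letters were sought on both strands, and CCACG can overlap TGACGTG when it is read on the other strand. A match is not a bound site.

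The 7-mers most frequent at all thresholded summits, relative to their flanks, were unevenly held. Of the 10 such 7-mers, the enpl-1 window held 3, cnx-1 held 2, and crt-1 and pdi-6 held 1 each. The windows of xbp-1, atf-6, ire-1, pek-1 and hsp-4 held none. At least 1 was in 41.3% of thresholded peaks. In enpl-1 they joined into the 9 letters GAGACGCAG, which were in 83 of 1416 summit windows (5.86%) and in 11 of 2832 flanking windows (0.388%). They were chosen after their values were seen. The share of G and C in the windows was 32.7% at ire-1 and 35.6% at pek-1, the lowest-ranked members, and 63.4% at atf-6. The median of thresholded peaks was 50.5%. For this share and for the 7-mers, the windows of crt-1, hsp-4, pek-1 and ire-1 were again not thresholded ones. The share of G and C did not follow rank throughout. It was 58.4% at both pdi-6 and crt-1, 57.4% at enpl-1, 49.5% at both xbp-1 and cnx-1, and 46.5% at hsp-4.

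The other genes of the pathway came from a list of 45 ER gene symbols, of which 41 were matched in the annotation. Of these, 8 had a thresholded peak within 1000 bp (19.5%, against 5.60% of all protein-coding genes), and 33 had some pooled region (80.5%, against 46.7%). The median best pooled rank of those 33 was 6079, against 11006 over all genes that had a pooled region. Ranks inside 1416 in both replicates were found for 8 of the 41 genes (19.5%) and 3 of the 10 members, against 4.2% of all protein-coding genes. Of the genes with a thresholded peak these were 8 of 8 and 3 of 6. Among all thresholded peaks found in both replicate lists, 69% stood inside 1416 in both. The 8 genes include sec-61.B and trap-3, which shared a peak. With so few genes these counts describe the sets only.

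Of the 3 signalling genes, rtcb-1 had the highest-ranked peak of any ER gene examined. RTCB-1 is the RNA ligase that joins the xbp-1 message after IRE-1 has cut it. Its peak had a signal of 319 and ranked 162 in the pooled list, 165 in replicate 1 and 167 in replicate 2, with the summit 723 bp upstream and no other protein-coding start in reach. The ire-1, rtcb-1 and xbp-1 genes, which act in one splicing step, thus had pooled ranks of 16746, 162 and 1254. The atf-4 gene, for a factor translated under PERK signalling in mammals, ranked 10811, and gcn-2, for another kinase of the eIF2 alpha subunit that PERK phosphorylates, ranked 10192.

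Of 13 genes for the degradation of misfolded ER proteins, 2 had a peak, against 5.60% of all protein-coding genes. The 2 were the genes of the worm p97 ATPases that draw proteins out of the ER membrane. The cdc-48.1 peak had a signal of 271 (rank 233, replicate ranks 292 and 193) and lay 152 bp upstream. The cdc-48.2 peak had a signal of 288 (rank 198, replicate ranks 191 and 219) and lay 905 bp upstream, nearer to the start of ctns-1 at 673 bp. The sel-11 gene, for a ubiquitin ligase of this pathway, had no pooled region in reach, and sel-1, for its partner, ranked 28706.

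Of 16 genes for entry into the ER and for the first modifications there, 5 had a peak, against 5.60% of all protein-coding genes. The 5 were dad-1 (oligosaccharyltransferase, signal 259, rank 256), sec-61.G (a translocon subunit, 200, rank 389), sec-61.B and trap-3 (133, rank 734) and spcs-2 (signal peptidase, 126, rank 805). The sec-61.B and trap-3 genes shared 1 peak, at 396 and 374 bp, and encode a translocon subunit and a translocon-associated protein. The dad-1 peak lay 384 bp from its start but 55 bp from that of tre-1, and the spcs-2 peak lay 150 bp from its start and 225 bp from that of mrg-1. The main translocon channel gene sec-61.A (signal 95.8, rank 1471) fell just past the list.

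Of 9 further folding genes 0 had a thresholded peak and 8 had a pooled region, against 5.60% and 46.7% of all protein-coding genes. With 9 genes, a count of 0 thresholded peaks is near that background. The best was pdi-1 (signal 93.1, rank 1574, replicate ranks 3395 and 1317), followed by pdi-3 (78.2, rank 2457) and dnj-7 (73.8, rank 2869), and pdi-2 stood at rank 6079 (signal 55.7). All 3 of these disulfide isomerases ranked below pdi-6, and each had its better rank in replicate 2.

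**Figure D4:**
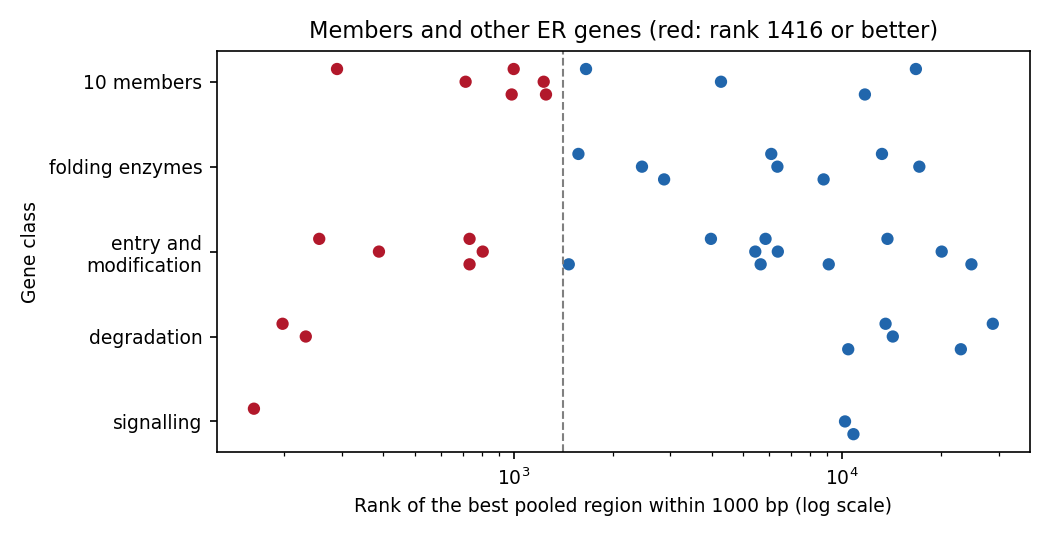
Rank of the best pooled region within 1000 bp of the start (x axis, log scale) for the 10 members and for 4 classes of other ER genes (y axis), 1 point per gene with a region, shifted vertically only to keep points apart. Red points rank 1416 or better: 6 of 10 members, none of the folding enzymes, 5 entry and modification genes, 2 degradation genes and 1 signalling gene. The share over all protein-coding genes was 5.60%.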

How the data were processed

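Peak lists of 2 replicates were used as the authors deposited them, and no reads were processed here. Per the labels, the lists exist on ce10 and ce11; only the ce11 lists were used, with WBcel235 (the same assembly), Ensembl release 115 gene models and the RefSeq copy of the genome. Per the deposited text records, regions were called with a control library for each replicate and for both pooled, and IDR made the thresholded list from these 3. Which aligner, peak caller and thresholds were used is not given in the sources used here. The signal value of each region is the authors' own, on an unstated scale. Its summit offset was added to the region start.

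From these, ranks within each list, distances to gene starts (the 5′ end of the gene record), overlaps of at least 1 bp and letter matches were computed with Python 3.11.15, numpy 2.4.6, pandas 2.3.3 and matplotlib 3.10.9. The joining of summits to starts was tested on simulated data. No statistical test was run. Depth is unknown, since the lists hold no counts. The members and lists were chosen with earlier results of these data known, and the 7-mers after their values were seen. The genes named are the 10 members, genes with starts within 1000 bp of their best summits, and, from the list of 45, those with a thresholded peak plus pdi-1, pdi-2 and pdi-3; ulp-4, ubc-6, ctns-1, tre-1, mrg-1, sec-61.A, sel-1, sel-11, atf-4, gcn-2 and dnj-7 were added after their values were seen. Some sequence at 1 member is not reported here. For C08G9.2 itself, 0 pooled summits lay within 1000 bp of the start.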

Additional observations from a re-analysis of the deposited data

How the results depend on the processing

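The count of 6 members fell to 1 among the 708 peaks of highest signal, while the share of all protein-coding genes fell from 5.60% to 3.38%. The member count was 4 to 6 under the other alternatives, and 5 without either replicate. The shares of all genes under these are given above. The count of 8 other ER genes became 3 within 250 bp, against 2.53% of protein-coding genes, and 5 among the 708 peaks, against 3.38%. By nearest start only it became 5, against 4.08%, a loss coming from peaks that lie nearer to a neighbouring start. The count of other ER genes was 10 without replicate 1, against 5.55%, and 8 without replicate 2, against 5.45%. The median member rank, 4.15% of the pooled list, was 5.56% without replicate 1 and 4.87% without replicate 2. TGACGTG was in 2 members' summit windows, crt-1 among them, with 150 bases to each side, where 2.75% of thresholded peaks held it, against 0 with 50. The cause of the other moves was not tested. For single members, 12 alternative ranks moved by more than 1 SD between replicates and 47 did not. That SD comes from the same 2 replicates and widens where they disagree, so these counts do not measure robustness. It was 43 percentage points at hsp-3 and 0.262 at atf-6. The largest moves were hsp-3, at 62.5% of the list without replicate 2, and hsp-4, at 66.7% without replicate 1. Matching replicate regions by nearest summit, chosen after seeing the data, left the median member rank gap at 1.56-fold. With unknown depth, a weak region cannot be told from one that was poorly sampled. No paired analysis was possible because there was 1 group.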

Other observations

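The pooled signal of a region was close to the sum of the signals of its replicate regions. Over the 1415 thresholded peaks found in both lists the median ratio was 1.00, with 0.91 and 1.05 as the 5th and 95th percentiles. At hsp-3 the pooled signal was 113 and the sum was 112, of which replicate 1 gave 19.0 and replicate 2 gave 93.0. At crt-1 the pooled signal was 91.0 and the sum 91.9. The scale of the signal is unstated, so these sums only describe how the columns relate.

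The annotated starts of atf-6 and crt-1 followed directly on the letters TTTCAG, the usual splice acceptor of the worm, at which a spliced leader can replace the first part of a message. The best pooled summits of these genes lay 308 and 340 bp upstream. Those of cnx-1, pek-1 and hsp-4 lay 305, 440 and 674 bp upstream, without these letters within 20 bases of the start. Within 20 bases of the start these letters, on the strand of the gene, were found in 2 of the 10 members and in 24.3% of protein-coding genes. Whether transcription of any of these genes starts nearer to the summits was not tested.

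Regions just inside and just outside the 1000 bp used were a pooled region 992 bp upstream of enpl-1 (signal 57.9, rank 5490) and one 1047 bp downstream of the xbp-1 start (45.2, rank 10144). A thresholded peak 1872 bp upstream of cnx-1 (signal 116, rank 951) was out of reach of its start.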
